A study of Mus musculus with 9 samples.

Results

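CWG-cPIP was compared with vehicle in the hippocampus of CUG300 mice, with 3 mice in each group of the 9 mice sequenced. All mice were male wild-type C57BL/6J mice that received AAV serotype 9 into the CA1 region of both hippocampi at 9 weeks of age, and tissue was taken 10 days later, at a labelled age of 10 weeks. The virus carried Egfp with CTG repeats in its 3′-UTR, 300 units in CUG300 mice and 10 units in CUG10 mice. CUG300 mice received the virus together with CWG-cPIP at 83 μg/kg or with its vehicle, and the 3 CUG10 mice received the virus with vehicle and serve here as a reference level. The model limits the repeat to cells that took up the virus, the viral transgene itself was not analysed here, and no group of CUG10 mice given the compound was analysed here, so an action of the compound that needs the expanded repeat and one that does not cannot be told apart. Of 24411 genes listed per mouse, 14867 whose mean across all 9 mice reached log2(10) were compared. The values are rlog values, that is, normalized read counts on a log2 scale after shrinkage toward the mean of each gene. A difference always means the mean of the CWG-cPIP-treated mice minus the mean of the vehicle-treated CUG300 mice on that scale.

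CWG-cPIP is a cyclic pyrrole–imidazole polyamide, a synthetic ligand that lies in the minor groove of DNA and was designed to read CAG and CTG (together CWG) repeats. Expanded CUG repeat RNA, the transcript of a CTG expansion, folds into hairpins that are held in nuclear foci together with splicing regulators of the muscleblind-like family. Long double-stranded RNA and viral nucleic acid are read by sensors in the cytoplasm that induce interferon, and interferon in turn raises a large set of antiviral genes in neurons, glia and infiltrating leukocytes. The question put to these 6 mice was which transcripts differed once the compound was given with the repeat.

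No gene passed limma with an adjusted p under 0.05 (percent called 0, smallest adjusted p = 0.483). At an unadjusted p under 0.05, 777 genes (5.23%) were higher and 535 (3.60%) were lower with CWG-cPIP, together 1312 (8.82%). The 3 treated mice lay above all 3 vehicle-treated mice for 739 genes (4.97%) and below them for 520 (3.50%), together 1259 (8.47%). Differences were centred close to 0, with a median of −0.00319 and 7346 genes higher against 7521 lower. Their tails were unequal. A difference under −1 was found for 159 genes and one over 1 for 20, and under −0.5 for 934 genes against 380 over 0.5. The median standard error of a difference was 0.146. Since no gene passed, every gene below is given by its values, its difference and its limma p. None of these differences reached an adjusted p under 0.05 in the fit on all 9 mice.

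**Figure D1:**
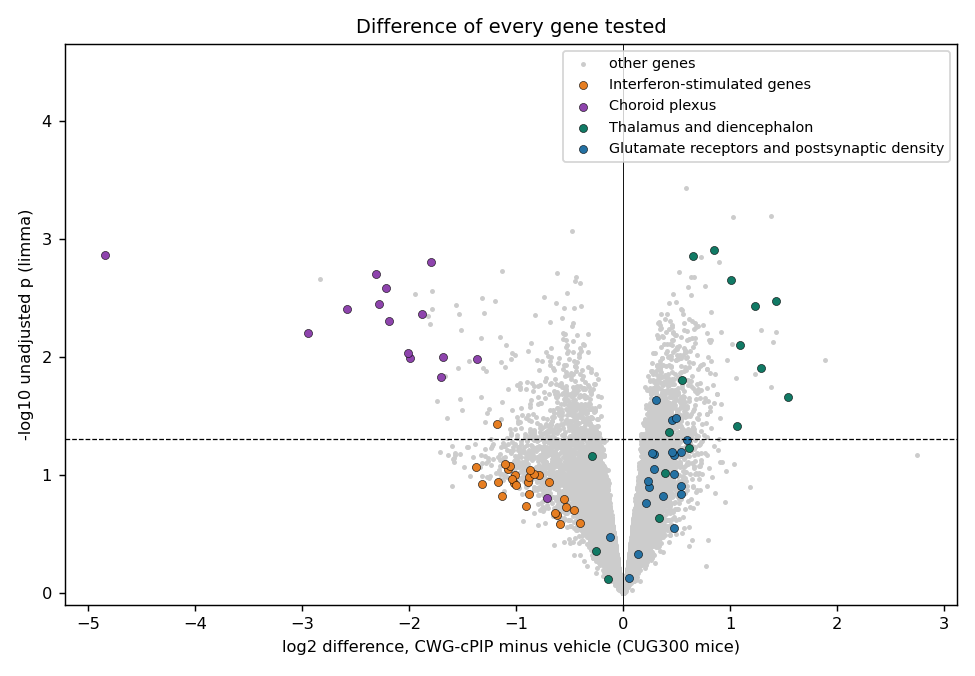
Each point is 1 of the 14867 genes compared, with its log2 difference (CUG300 mice given CWG-cPIP minus those given vehicle) on the horizontal axis and −log10 of the unadjusted limma p on the vertical axis; the dashed line marks an unadjusted p of 0.05. Choroid plexus genes (purple) reach from −0.72 to −4.84, genes of the thalamus and diencephalon (green) reach up to 1.54, the interferon-stimulated genes (orange) lie between −0.41 and −1.38, all but 1 of them under the line, and genes of glutamate receptors and the postsynaptic density are blue.

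The 3 treated mice differed from each other in how far they stood from the vehicle-treated mice. Treated replicate 2 lay outside the range of the 3 vehicle-treated mice for most genes, above it for 32.0% and below it for 31.1%. Replicate 1 lay above that range for 23.8% of genes and below it for 3715 of the 14867. For replicate 3, the shares were 11.9% and 11.1%, and 77.0% of its genes stood within the range. The first principal component of the 6 mice held 63.1% of the variance. On it the vehicle-treated mice stood at −28.40, 5.07 and −31.05 and the treated mice at 21.89, 47.09 and −14.59, so that vehicle replicate 2 lay between treated replicates 1 and 3. The counts of genes at an unadjusted p under 0.05 moved with single mice, to 2228 higher and 1692 lower without vehicle replicate 2 and to 1681 and 1998 without treated replicate 3. They were 203 and 244 without treated replicate 2, 239 and 170 without treated replicate 1, and 280 and 171 without vehicle replicate 3. Despite this spread along the component, the standard deviation of single genes was more often the larger one in vehicle-treated mice, with a median of 0.218 against 0.144 in treated mice and a larger value in treated mice for 4560 genes (30.7%).

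Genes typical of tissue that borders the hippocampus were frequent among the largest differences, once genes that overlapped between the groups and predicted genes were set aside. The lists of such genes were written with earlier results of these data known, so the counts below describe them and test nothing. Of the 12 genes with the largest negative differences among those without overlap and with an unadjusted p under 0.05, 10 belonged to a list of 15 choroid plexus genes. The choroid plexus is the secretory epithelium of the ventricles that makes cerebrospinal fluid. Of the 12 genes with the largest positive differences, 7 belonged to a list of 18 genes of the thalamus and diencephalon, the nuclei that lie below the hippocampus. The 2 largest positive differences of all were outside this choice, 1.89 for the predicted gene Gm7334 and 2.75 for Eif3j1, named after its values were seen, which overlapped with 8.41, 4.51 and 9.08 in treated mice against 4.62, 4.58 and 4.57 with vehicle.

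Ttr encodes transthyretin, the carrier of thyroid hormone that the choroid plexus secretes. Its values were 15.89, 13.88 and 14.74 in the vehicle-treated CUG300 mice, 10.26, 9.51 and 10.22 in the treated mice and 9.78, 13.20 and 14.74 in CUG10 mice. All treated mice stood below all vehicle-treated mice, and the CUG10 mice covered nearly the whole span of both groups. The difference of Ttr was −4.84 (SE 1.06, limma adjusted p = 0.483). Folr1, a folate receptor on chromosome 7 from 101858331 to 101870788 of GRCm38, had 8.97, 6.98 and 8.0003 with vehicle and 5.37, 5.45 and 5.40 with CWG-cPIP. The treated mice lay within 0.08 of each other, while CUG10 mice again ranged widely, at 5.30, 6.97 and 8.12. The difference of Folr1 was −2.58 (SE 0.67, limma adjusted p = 0.483).

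Transport proteins of the same epithelium followed this order. Aqp1, a water channel of its apical membrane on chromosome 6 from 55336432 to 55348555, had 7.85, 6.71 and 7.59 with vehicle and 5.18, 5.05 and 5.95 with CWG-cPIP. Slc4a5, a sodium bicarbonate cotransporter, had 7.13, 6.70 and 6.89 with vehicle and 4.74, 4.61 and 4.70 with CWG-cPIP. F5, coagulation factor V, had 7.27, 7.20 and 7.07 with vehicle and 4.86, 4.9999 and 5.11 with CWG-cPIP. In each of these genes the groups did not overlap, and for Slc4a5 and F5 both groups were narrow. When only the 6 CUG300 mice were fitted, without the CUG10 mice, Slc4a5 and F5 passed, each with a limma adjusted p of 0.0102. The potassium channel genes Kcnj13 and Kcne2 differed by −2.31 and −2.28, the chloride channel gene Clic6 by −2.95 and the tight junction gene Cldn2 by −2.01. Enpp2, which encodes autotaxin and is made by this epithelium but also by oligodendrocytes, is not on the list and differed by −1.94.

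Over the whole choroid plexus list, 15 of 15 members had a lower mean with CWG-cPIP, 14 of them at an unadjusted p under 0.05 and 14 without overlap, beside 3.60% and 3.50% of all genes. The median difference was −2.01, beside −0.00319 over all genes. Otx2, the transcription factor of this epithelium, was the member with overlap, at 7.76, 6.78 and 7.12 with vehicle and 6.42, 7.21 and 5.87 with CWG-cPIP. The mean level of the list was 8.61, 7.45 and 7.98 in vehicle-treated mice, 5.83, 5.87 and 5.83 in treated mice and 5.64, 7.02 and 8.32 in CUG10 mice. Treated mice thus stood near the lowest CUG10 mouse and hardly differed from each other, whereas CUG10 mice, which had received no compound, spread over 2.67 log2 units. Markers of the ependyma, the ciliated lining of the ventricles, showed the same sign in 8 of 8 members (median −0.88), 6 of them at an unadjusted p under 0.05 but 1 without overlap. That gene was Foxj1, the regulator of motile cilia, with 9.65, 8.53 and 9.68 against 7.99, 8.05 and 8.49.

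**Figure D2:**
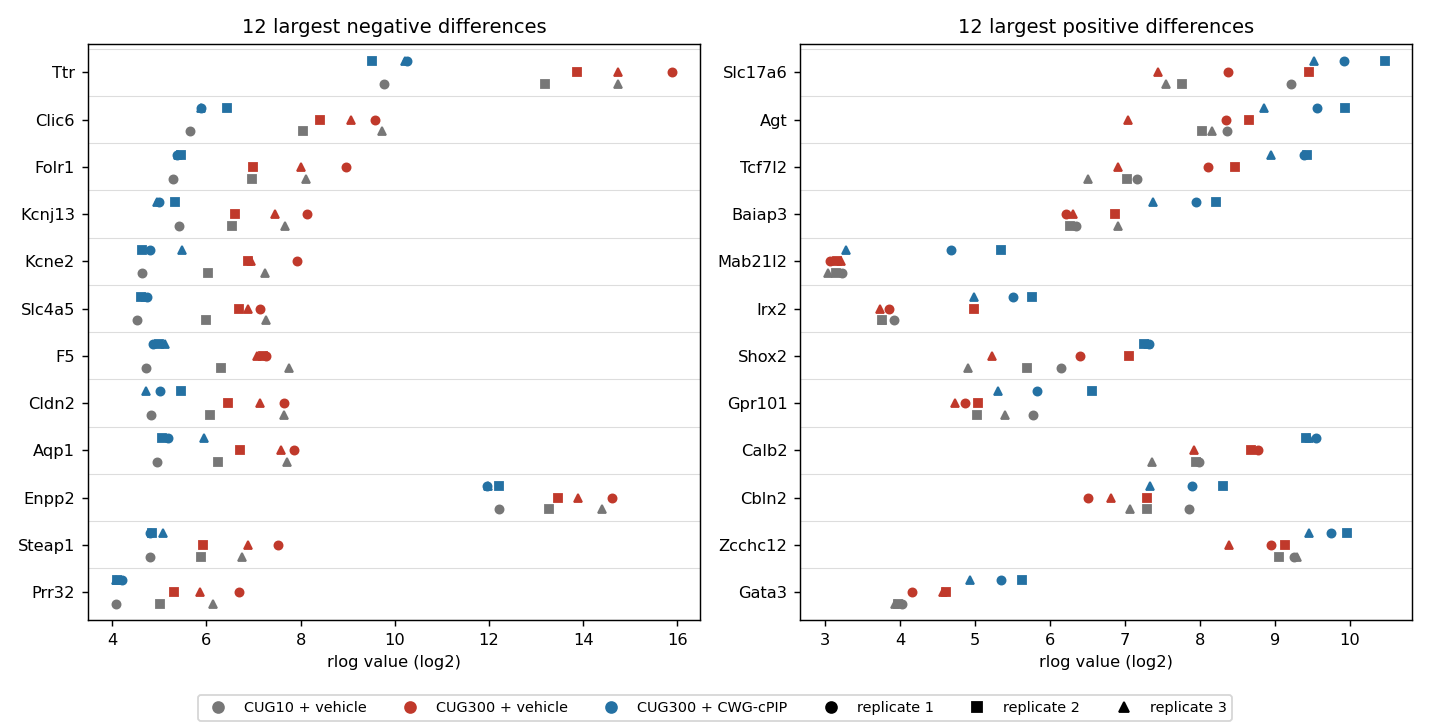
The rlog value (log2, horizontal axis) of the 12 genes with the largest negative and the 12 with the largest positive difference in each mouse, chosen among genes without overlap and with an unadjusted p under 0.05; colour gives the group and shape the replicate number. In the left panel the CUG10 mice (grey) reach from the level of the treated mice (blue) to that of the vehicle-treated mice (red), as for Ttr from 9.78 to 14.74, and in the right panel the treated mice lie to the right of all vehicle-treated mice.

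Among the genes with positive differences, Slc17a6 encodes the vesicular glutamate transporter of thalamic and other subcortical neurons. Its values were 8.37, 9.45 and 7.44 with vehicle, 9.92, 10.46 and 9.52 with CWG-cPIP and 9.21, 7.76 and 7.54 in CUG10 mice. The highest vehicle-treated mouse lay only 0.07 below the lowest treated mouse. The difference was 1.54 (SE 0.56, limma adjusted p = 0.483). Tcf7l2, a transcription factor of Wnt signaling and of thalamic neurons, had 8.10, 8.46 and 6.91 with vehicle, 9.39, 9.43 and 8.95 with CWG-cPIP and 7.16, 7.03 and 6.51 in CUG10 mice, a difference of 1.43 (SE 0.36). For Tcf7l2 the treated mice stood above all 6 others. Calb2, which encodes the calcium-binding protein calretinin, had 8.77, 8.68 and 7.92 with vehicle and 9.55, 9.41 and 9.45 with CWG-cPIP.

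The transcription factor genes Gata3 and Foxb1 and the patterning gene Mab21l2 had low values in all mice. Gata3 had 4.16, 4.61 and 4.57 with vehicle and 5.34, 5.63 and 4.93 with CWG-cPIP. Mab21l2 was flat in the vehicle-treated mice at 3.06, 3.16 and 3.21 and stood at 4.68, 5.35 and 3.28 with CWG-cPIP, so that 2 of the 3 treated mice carried its difference of 1.29. Foxb1, of mammillary and thalamic neurons, had 3.05, 3.41 and 3.09 with vehicle and 4.59, 4.85 and 3.37 with CWG-cPIP. Both Mab21l2 and Foxb1 passed when treated replicate 3, the mouse closest to the vehicle level, was left out (limma adjusted p = 0.0302 and 0.0257).

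Over the list of the thalamus and diencephalon, 17 of the 18 genes passed the filter on low values (Pou4f1 did not). A higher mean was found for 14, 11 at an unadjusted p under 0.05 and 8 without overlap (background 5.23% and 4.97%), with a median of 0.65. Its mean level was 6.32, 6.77 and 5.99 with vehicle, 7.16, 7.08 and 6.92 with CWG-cPIP and 6.22, 6.03 and 5.81 in CUG10 mice. The treated mice again formed a narrow group, here above all other mice. Tac2, which encodes neurokinin B and is used in the medial habenula, went the other way without overlap, with 5.26, 5.53 and 5.54 against 5.21, 5.23 and 5.01. The other members with a lower mean, Prkcd and Ramp3, overlapped between the groups. Prkcd had 9.99, 10.54 and 9.42 with vehicle and 10.14, 8.83 and 10.54 with CWG-cPIP (difference −0.14). Ramp3 had 8.88, 8.50 and 8.61 against 8.44, 7.67 and 9.12 (difference −0.26). Markers of cortical and striatal neurons did not separate the groups, with 5 of 12 members higher, a median of −0.16 and no member at an unadjusted p under 0.05. Cells of these tissues in the dissected samples and the level of their RNA per cell cannot be told apart in bulk tissue, and the part of dissection in these differences was not tested. With the choroid plexus mean of each mouse added as a covariate, the genes at an unadjusted p under 0.05 numbered 79 higher and 100 lower, in place of 777 and 535. That mean itself placed all treated mice below all vehicle-treated ones, so covariate and compound are largely confounded in this fit. What the smaller counts owe to tissue was therefore not tested.

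Other genes with positive differences were not on these lists. Agt encodes angiotensinogen and is made in the brain mainly by astrocytes, with regional differences. It stood at 8.35, 8.65 and 7.04 with vehicle, 9.56, 9.93 and 8.85 with CWG-cPIP and 8.36, 8.02 and 8.16 in CUG10 mice, a difference of 1.43. Baiap3, which acts in the exocytosis of dense-core vesicles, had 6.21, 6.87 and 6.30 with vehicle and 7.95, 8.21 and 7.37 with CWG-cPIP (difference 1.38, SE 0.27). The smallest p of all genes was that of Tmem130, a membrane protein of neurons, with 10.69, 10.71 and 10.56 with vehicle, 11.20, 11.44 and 11.07 with CWG-cPIP and 11.23, 11.13 and 11.17 in CUG10 mice. Its difference was 0.59 with an SE of 0.11, and limma gave an unadjusted p of 0.000373 and an adjusted p of 0.483. Vehicle-treated mice of Tmem130 lay within 0.15 of each other and below every treated and every CUG10 mouse.

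Impa2, an enzyme of inositol recycling, had the smallest p of the named genes with a lower mean. Its values were 5.62, 5.51 and 5.63 with vehicle and 5.09, 5.06 and 5.17 with CWG-cPIP, narrow groups that did not overlap, and 5.36, 5.27 and 5.45 in CUG10 mice between them. The difference of Impa2 was −0.48 (SE 0.10, limma unadjusted p = 0.000858, adjusted p = 0.483). Gm7334, annotated as a processed pseudogene, read 3.86, 3.84 and 3.83 with vehicle and 5.97, 5.59 and 5.63 with CWG-cPIP. One CUG10 mouse read 6.42 and the other two 3.81, so that Gm7334 stood at either a low or a high level in mice that had received no compound as well. It passed when that CUG10 mouse was left out (limma adjusted p = 0.00397).

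Immune gene lists had lower means with CWG-cPIP as well, but here the treated mice disagreed with each other. In all, 27 of 27 interferon-stimulated genes had a lower mean with CWG-cPIP (median −0.89), 1 of them at an unadjusted p under 0.05 and none without overlap, beside 3.60% and 3.50% of all genes. The mean level of the list was 11.20, 10.995 and 11.37 in vehicle-treated mice and 7.78, 8.50 and 8.06 in CUG10 mice. In treated mice it was 10.62, 8.92 and 11.35, which put replicate 2 near the CUG10 mice, replicate 3 among the vehicle-treated mice and replicate 1 between them. Replicate 2 lay below the range of the vehicle-treated mice for 27 of the 27 genes and replicate 1 for 26, whereas replicate 3 lay below it for none, within it for 20 and above it for 7. The SD of a gene was larger in treated than in vehicle-treated mice for 27 of 27 members, with a median of 1.23 against 0.27, opposite to the order over all genes. Without treated replicate 2 the median of the list was −0.25, and without treated replicate 3 it was −1.455.

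Isg15 encodes a ubiquitin-like modifier, on chromosome 4 from 156199424 to 156200818. It had 13.32, 12.36 and 13.03 with vehicle and 12.10, 10.03 and 13.08 with CWG-cPIP, a difference of −1.17 (SE 0.67, limma adjusted p = 0.483). Ifit1, whose protein binds viral RNA without the host's cap methylation, had 13.23, 12.55 and 13.10 with vehicle and 12.29, 10.39 and 12.99 with CWG-cPIP. Mx2, a gene of the dynamin-like antiviral GTPases that GENCODE annotates as a polymorphic pseudogene in the mouse reference, had 10.62, 10.04 and 11.17 against 9.73, 7.29 and 10.69, the largest difference of the list at −1.38. In these genes replicate 3 of the treated mice stood within the range of the vehicle-treated mice, and replicate 2 lay 2.33, 2.16 and 2.75 below the lowest of them.

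Promoters of the immune lists were searched for the letters of the interferon-stimulated response element, the site through which interferon raises transcription. Windows of 5 genes that hold them are shown because interferon response is the feature by which the first of these lists was written. A search for GAAA, any 2 bases and GAAA again on either strand, from 250 bases before to 50 bases after the gene start in RefSeq promoters of GRCm38.p6, found it for 10 of the 18 interferon-stimulated genes with a promoter in the table, 9 of 10 interferon-inducible GTPases, 3 of 11 MHC class I genes and 1 of 10 chemokine and cytokine genes. Over all promoters in the table the share was 3.44%, and over those of the genes compared it was 3.83%. Each window below is 30 bases of the gene's own strand, 5′ to 3′, with the matching letters in capitals. The strand stands after the coordinates.
Isg15 promoter, chr4:156200877-156200906, minus strand: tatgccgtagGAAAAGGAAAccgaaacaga
Ifit1 promoter, chr19:34640775-34640804, plus strand: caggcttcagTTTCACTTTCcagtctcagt
Gbp2 promoter, chr3:142620594-142620623, plus strand: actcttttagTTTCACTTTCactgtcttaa
B2m promoter, chr2:122147538-122147567, plus strand: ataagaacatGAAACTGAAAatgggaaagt
Cxcl10 promoter, chr5:92349083-92349112, minus strand: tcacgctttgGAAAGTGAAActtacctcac

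Further lists of genes that answer to interferon or lie upstream of it had their means in treated mice in the same order. Gbp2, a guanylate-binding protein that attacks the vacuoles of pathogens, had 12.40, 12.65 and 12.49 with vehicle and 11.90, 10.45 and 12.60 with CWG-cPIP. All 12 GTPases of its list had a lower mean (median −0.76), 2 of them without overlap beside 3.50% of all genes, and their mean level in treated mice was 11.0004, 9.69 and 11.54 beside 11.41, 11.61 and 11.49 with vehicle. The sensors of double-stranded RNA and DNA, upstream of interferon, had a median of −0.57 with 9 of 9 measured members lower. Ifih1, which encodes MDA5 and reads long double-stranded RNA, had 10.75, 10.82 and 10.96 with vehicle and 10.54, 8.91 and 10.88 with CWG-cPIP. Ddx58, which encodes RIG-I, had 10.63, 10.90 and 11.04 against 10.68, 9.04 and 11.09, so that 2 of the 3 treated mice lay within the vehicle range or above it.

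**Figure D3:**
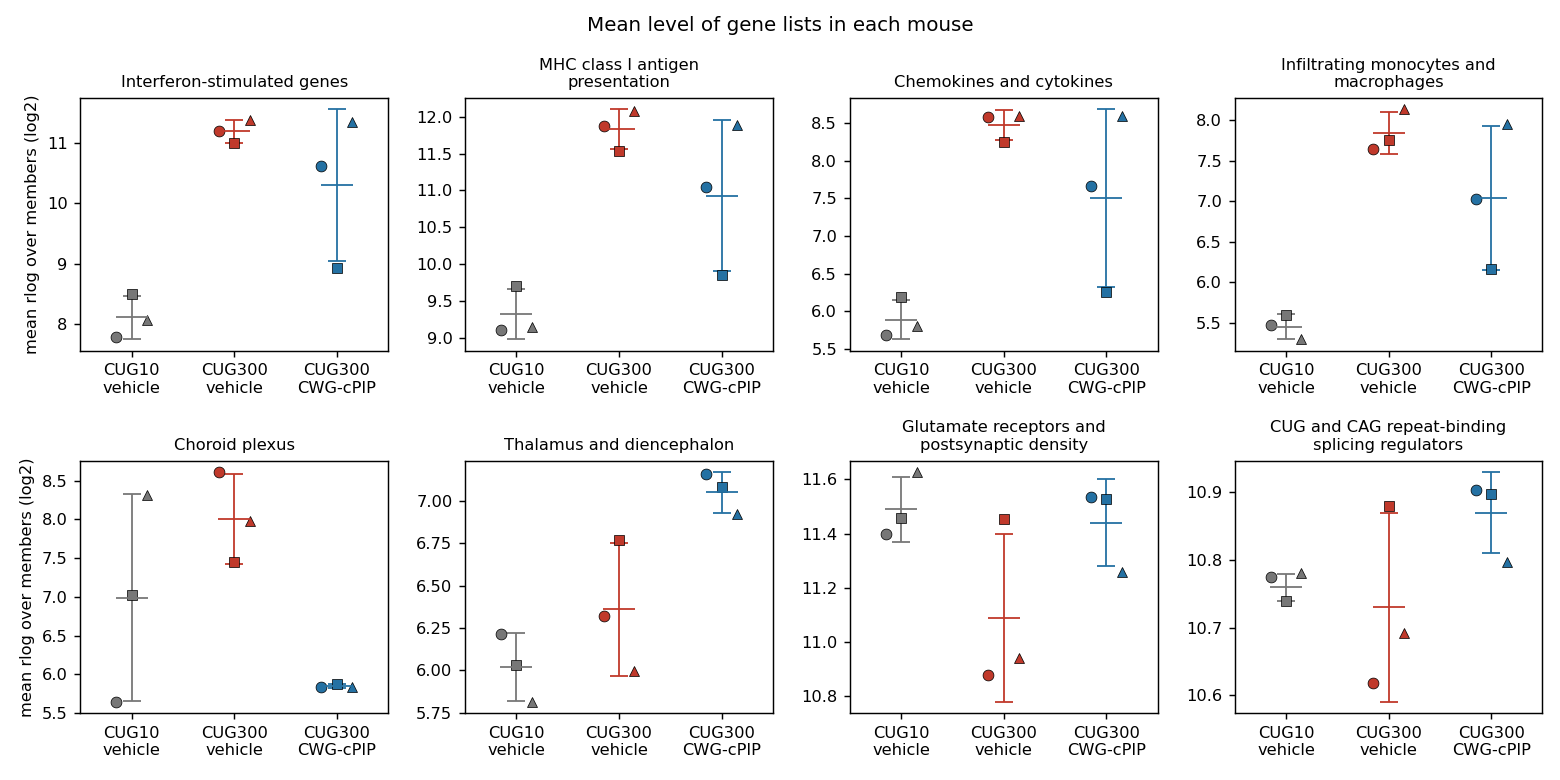
Mean rlog level over the members of 8 gene lists (log2, vertical axes, which differ between panels) in each mouse of the 3 groups; each mouse is a point, with circles for replicate 1, squares for replicate 2 and triangles for replicate 3, and bars are mean and SD. In the 4 immune lists of the upper row treated replicate 2 lies lowest of the CUG300 mice and replicate 3 among the vehicle-treated mice, whereas the choroid plexus list places all 3 treated mice between 5.83 and 5.87.

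Antigen presentation followed. MHC class I genes were lower in 13 of 13 members (median −0.81), 3 of them at an unadjusted p under 0.05 and none without overlap (3.60% and 3.50% over all genes). B2m, the light chain of every class I molecule, had 14.08, 14.06 and 14.38 with vehicle and 13.54, 12.47 and 14.16 with CWG-cPIP. H2-K1, a classical heavy chain, had 13.64, 13.49 and 14.16 against 12.75, 11.53 and 13.76. For all 13 genes treated replicates 1 and 2 lay below the vehicle range and replicate 3 within it. MHC class II genes had a median of −1.05 (7 of 7 lower), with H2-Ab1 at 10.43, 10.69 and 11.24 against 9.18, 8.69 and 10.83. H2, Gbp and Ifit genes have close copies in the genome between which reads may be split, and their single values are uncertain to that degree.

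Chemokines and cytokines had a lower mean in 16 of 16 members (median −0.97), 4 at an unadjusted p under 0.05 and 1, Cxcl13, without overlap, where all genes gave 3.60% and 3.50%. Cxcl10, which draws T cells through CXCR3, had 12.77, 12.43 and 12.68 with vehicle and 11.99, 9.43 and 12.69 with CWG-cPIP (difference −1.26, SE 0.70, limma adjusted p = 0.483). Ccl2, which draws monocytes through CCR2, had 11.02, 10.04 and 10.43 against 9.28, 6.90 and 10.49, the largest difference of the list at −1.60. Treated replicate 2 read 3.00 below the lowest vehicle-treated mouse for Cxcl10 and 3.14 below it for Ccl2. Ccl8, a further ligand of monocyte receptors, had 6.39, 6.19 and 6.34 with vehicle and 5.18, 5.14 and 6.48 with CWG-cPIP, and it passed without treated replicate 3 (limma adjusted p = 0.0397).

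The list means of infiltrating monocytes and macrophages and of T and NK cells placed the treated mice in the same order, lowest in replicate 2 and highest in replicate 3. Ly6c2 and Ccr2 mark inflammatory monocytes. Ly6c2 had 10.16, 10.51 and 11.16 with vehicle and 9.24, 7.09 and 10.79 with CWG-cPIP, and Ccr2 had 7.71, 8.11 and 8.71 against 7.20, 6.20 and 8.20. In the monocyte and macrophage list 8 of 11 members had a lower mean. Replicate 2 was not the lowest treated mouse for F13a1, at 5.96, 6.19 and 6.60. The 3 members without a lower mean, Mrc1, Lyve1 and Cd163, are markers of macrophages resident at the borders of the brain, with differences of 0.14, 0.16 and 0.25. T and NK cell genes were lower in 12 of 12 members (median −0.60), as for the granzyme gene Gzmb with 7.96, 8.33 and 8.34 against 7.02, 5.40 and 8.64. Complement genes were lower in 10 of 10 (median −0.62). Less RNA per cell and fewer cells of a type cannot be told apart here.

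Resident glia differed by state. Homeostatic microglia genes had a median of −0.05, with P2ry12, the purinergic receptor that defines them, at 8.31, 8.47 and 7.72 with vehicle and 8.39, 8.72 and 7.90 with CWG-cPIP. Disease-associated microglia genes were lower in 11 of 12 members (median −0.57), with Cst7, a cystatin, at 8.74, 8.33 and 8.48 against 7.96, 6.09 and 8.48. Reactive astrocyte genes were lower in 10 of 10 (median −0.64), and Vim, the intermediate filament vimentin, had 12.92, 12.59 and 13.34 with vehicle and 12.13, 11.34 and 12.88 with CWG-cPIP. Homeostatic astrocyte genes had a higher mean in 8 of 9 (median 0.42). Among them Slc4a4, a bicarbonate transporter, had 9.75, 10.81 and 9.55 against 11.04, 11.27 and 10.25, whereas Aqp4, the water channel of astrocyte endfeet, differed by 0.05. No list of glia separated the treated from the vehicle-treated mice.

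Myelin genes had a median of −0.14, and their mean level spread more in vehicle-treated mice (12.01, 10.84 and 11.38) than in treated mice (11.25, 11.64 and 11.07). Gpr17, a receptor of maturing oligodendrocyte precursors, had 7.997, 8.25 and 7.04 with vehicle, 8.76, 9.57 and 7.67 with CWG-cPIP and 9.12, 9.48 and 9.20 in CUG10 mice. The groups of CUG300 mice overlapped for it, with treated replicate 2 at the CUG10 level. Endothelial genes had a median of 0.09 and mural cell and fibroblast genes one of −0.08. Igf2, a growth factor made by the choroid plexus and the meninges and a member of the mural cell and fibroblast list, was the exception there, at 10.38, 10.12 and 10.93 with vehicle and 9.25, 9.90 and 8.84 with CWG-cPIP (difference −1.15, SE 0.33).

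**Figure D4:**
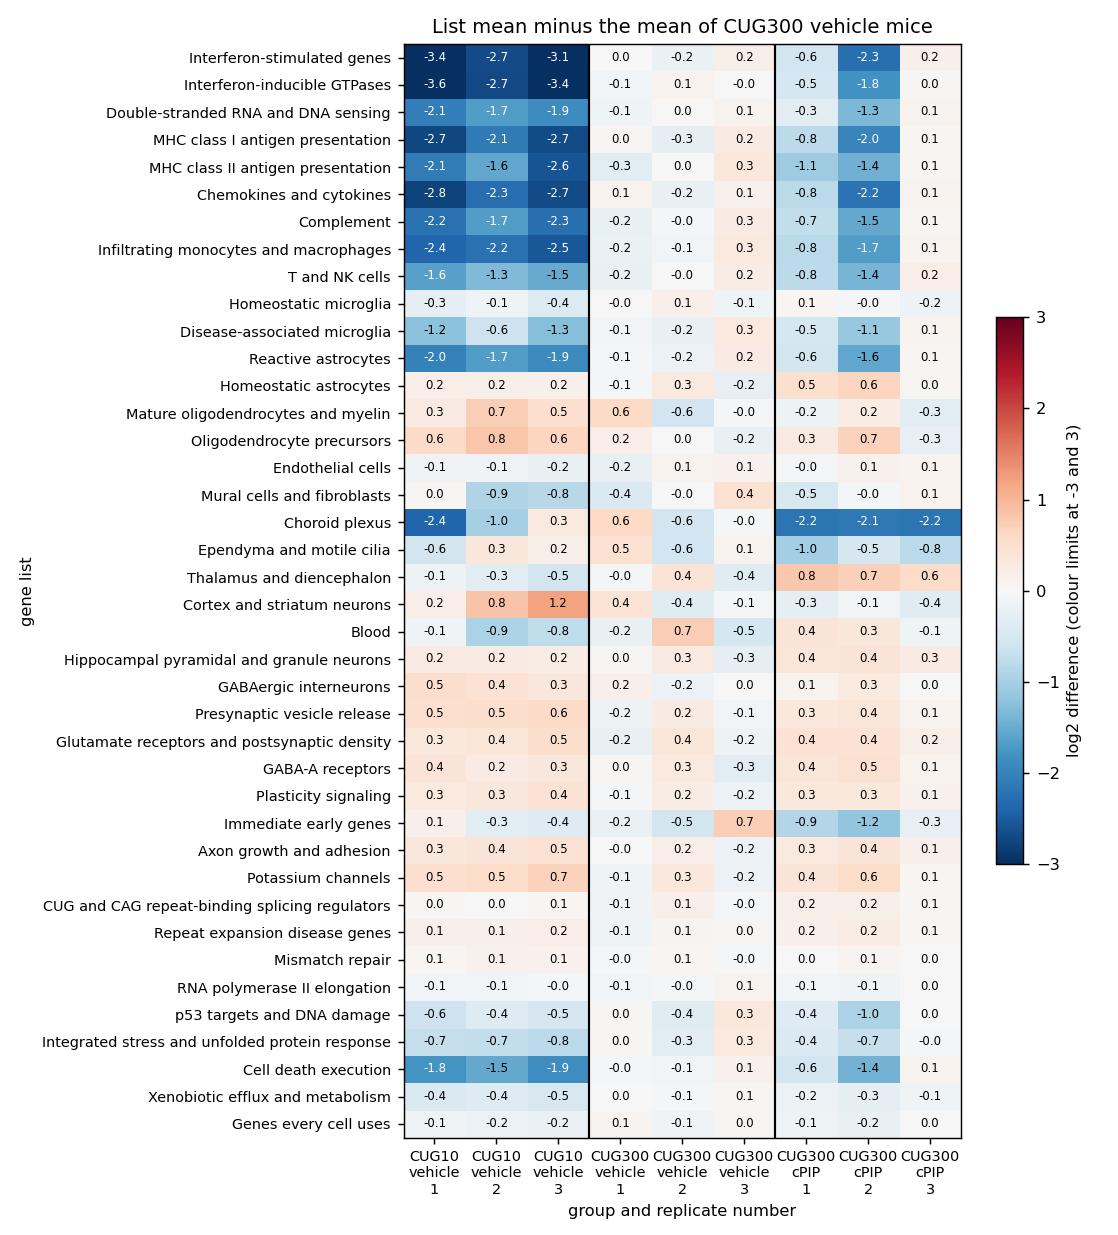
Mean level of each gene list (rows) in each of the 9 mice (columns) minus the mean of the 3 vehicle-treated CUG300 mice, in log2 units; red is higher, blue is lower, and colours stop at 3 and −3. Among treated mice, replicate 2 is the bluest in the immune lists and replicate 3 stays close to 0, and in the choroid plexus row all 3 treated mice are blue while the CUG10 mice run from blue to light red, at list means of 5.64, 7.02 and 8.32.

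Neuronal genes had mostly small positive differences. The list of hippocampal pyramidal and granule neurons, which checks the tissue label, was expressed in all mice and had a higher mean in 12 of 14 members (median 0.39), 4 at an unadjusted p under 0.05 and the same number without overlap, beside 5.23% and 4.97% of all genes. Fibcd1, a marker of CA1 pyramidal neurons, had 10.36, 9.99 and 9.70 with vehicle, 10.64, 10.78 and 10.62 with CWG-cPIP and 10.94, 10.74 and 10.79 in CUG10 mice. The vehicle-treated mice lay below both other groups. The difference of Fibcd1 was 0.66 (SE 0.15, limma adjusted p = 0.483). Wfs1, an endoplasmic reticulum protein of CA1, had 10.78, 10.96 and 10.92 with vehicle and 11.31, 11.04 and 11.34 with CWG-cPIP, here with CUG10 mice among the vehicle-treated ones at 10.72, 10.96 and 11.03.

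Synaptic lists shared this sign. Glutamate receptor and postsynaptic genes were higher in 20 of 21 members (median 0.37), 3 at an unadjusted p under 0.05 and 2 without overlap, again beside 5.23% and 4.97%. Grin1, the obligate subunit of NMDA receptors, had 12.03, 12.45 and 12.24 with vehicle, 12.57, 12.61 and 12.47 with CWG-cPIP and 12.66, 12.73 and 12.73 in CUG10 mice. The lowest treated mouse stood 0.02 above the highest vehicle-treated mouse, and the difference was 0.31 (SE 0.11, limma adjusted p = 0.483). Gria1, a subunit of AMPA receptors, had 12.92, 13.58 and 12.83 with vehicle and 13.62, 13.67 and 13.42 with CWG-cPIP. In this gene vehicle replicate 2 stood with the treated mice. The same mouse lay close to the treated mice over the whole list, whose mean level was 10.88, 11.45 and 10.94 with vehicle and 11.54, 11.53 and 11.26 with CWG-cPIP. Without it the median of the list was 0.60.

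Presynaptic genes were higher in 19 of 20 members (median 0.28), GABA-A receptor genes in 10 of 11 (median 0.30) and potassium channel genes in 13 of 14 (median 0.34). Axon growth and adhesion genes were higher in 17 of 18 (median 0.29) and plasticity genes in 12 of 13 (median 0.21). The mean level of each of these lists overlapped between the groups. Treated replicate 3 lay within the vehicle range for 16, 9, 10, 14 and 10 members of these lists, in that order. L1cam, a cell adhesion molecule of axons, had 8.85, 9.33 and 8.56 with vehicle and 9.62, 9.82 and 9.39 with CWG-cPIP, close to the 9.75, 9.69 and 9.92 of CUG10 mice, and its difference was the largest of the axon list at 0.70 (SE 0.19). Gabra3, a subunit of GABA-A receptors, had 8.91, 8.68 and 8.78 with vehicle and 9.42, 9.98 and 8.93 with CWG-cPIP. The plasma membrane SNARE protein Stx1a was the presynaptic member with a lower mean, at 10.43, 9.97 and 10.15 against 10.06, 9.96 and 10.13. Interneuron genes were split, with 6 members higher, 4 lower and a median of 0.10 over the list. Gad2, which makes GABA, differed by 0.62 and the neuropeptide gene Npy by −0.58. At an unadjusted p under 0.05, 3 were higher and 1 lower, beside 5.23% and 3.60% of all genes, and none was without overlap.

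Immediate early genes, which neurons transcribe within minutes of firing, had lower means in 10 of 10 members (median −0.81), 4 at an unadjusted p under 0.05 and none without overlap (3.60% and 3.50% over all genes). Egr2 had 9.01, 8.53 and 10.52 with vehicle, 7.59, 6.38 and 8.87 with CWG-cPIP and 8.12, 7.58 and 7.62 in CUG10 mice. Its difference of −1.74 (SE 0.64) was the largest of the list. Fos had 9.16, 8.86 and 10.24 with vehicle and 8.50, 8.22 and 9.14 with CWG-cPIP. Vehicle replicate 3 was the highest of the 9 mice in both genes, and without it the median of the list was −0.41.

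Stress genes mostly sided with the immune lists. Cell death genes were lower in 12 of 12 members (median −0.61), among them Zbp1, a sensor of left-handed double-stranded nucleic acid that is itself induced by interferon, with 10.06, 10.17 and 10.47 against 9.27, 7.75 and 10.37. Genes of the integrated stress and unfolded protein response were lower in 12 of 12 (median −0.31), with Atf3 at 9.001, 8.50 and 9.77 against 7.86, 6.21 and 9.22. Targets of p53 were lower in 11 of 12 (median −0.41), and Cdkn1a, the cell cycle inhibitor p21, had 12.18, 11.39 and 12.60 against 11.26, 10.04 and 12.08. In each of these genes the order of the treated mice was that of the interferon-stimulated genes. The 1 target of p53 with a higher mean was higher without overlap, at an unadjusted p under 0.05. Each of the 3 stress lists had 1 member lower at that p and none lower without overlap, beside 3.60% and 3.50% of all genes.

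A list of efflux pumps and drug-metabolizing enzymes was written to look for a response to the compound as a foreign molecule. Its mean level was 8.71, 8.64 and 8.75 with vehicle and 8.52, 8.44 and 8.57 with CWG-cPIP, lower without overlap, with a median difference of −0.08 over 13 members. A lower mean was found for 9 members and a higher one for 4, among which Cyp2d22 had the largest difference at 0.33. Abcb1b, which encodes a P-glycoprotein pump, had 6.64, 6.83 and 6.87 against 6.37, 5.96 and 6.54, and Hmox1, the heme oxygenase induced by oxidative stress, had 10.02, 9.57 and 10.48 against 9.05, 7.90 and 9.94. No member of the list had a higher mean at an unadjusted p under 0.05, and 3 had a lower one, beside 5.23% and 3.60% of all genes. Abcb1b alone was lower without overlap, beside 3.50% of all genes. Genes every cell uses had a median of −0.11, with Actb at 14.57, 14.53 and 14.63 against 14.38, 14.22 and 14.74.

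The regulators that bind CUG repeat RNA had small differences. Mbnl1, the splicing factor sequestered by expanded CUG RNA, had 10.78, 10.84 and 10.72 with vehicle, 10.80, 10.63 and 10.80 with CWG-cPIP and 10.45, 10.38 and 10.37 in CUG10 mice. All 6 CUG300 mice stood above the CUG10 mice for Mbnl1, and the difference between treated and vehicle-treated mice was −0.04 (SE 0.08, limma adjusted p = 0.816). Mbnl2 had 11.14, 11.71 and 11.40 against 11.72, 11.74 and 11.37 (difference 0.19). Celf1, which acts against the muscleblind-like proteins on shared exons, had 11.28, 11.40 and 11.28 against 11.43, 11.41 and 11.40, a difference of 0.10. Of the 11 measured regulators 9 had a higher mean (median 0.10). These values are totals per gene and say nothing on splicing, for which the values per exon were not analysed here.

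Of the 14 genes whose human counterparts carry disease repeats, 11 had a higher mean with CWG-cPIP (median 0.20). Dmpk, whose human counterpart carries the CTG expansion of myotonic dystrophy type 1, had 7.05, 6.92 and 7.62 with vehicle and 7.08, 7.24 and 7.0001 with CWG-cPIP (difference −0.09, SE 0.18, limma adjusted p = 0.802). Htt, the mouse huntingtin gene, had 9.80, 10.73 and 10.38 against 10.69, 10.87 and 10.36 (difference 0.33, SE 0.23, limma adjusted p = 0.505). Both genes overlapped between the groups. Of the 14 genes, 2 were higher at an unadjusted p under 0.05 and 3 were higher without overlap, beside 5.23% and 4.97% of all genes. None was lower by either measure. Of transcripts that are misspliced in myotonic dystrophy, Mapt had 12.60, 12.48 and 12.23 against 12.65, 12.76 and 12.49, and App had 14.26, 14.39 and 14.37 against 14.46, 14.50 and 14.43, with differences of 0.20 and 0.12. Mismatch repair genes, which drive the instability of such repeats, had a median of 0.06. Elongation factors of RNA polymerase II had a median of −0.03.

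Since CWG-cPIP binds CWG repeats, mouse genes whose annotated transcripts hold at least 10 uninterrupted CAG or CTG units were looked at as a group. There were 53 among the genes compared, with the longest tract in coding sequence for 21, in a noncoding transcript for 12, in the 3′-UTR for 11 and in the 5′-UTR for 9. The starts of 3 such tracts are shown because these would be the endogenous sequences most like the designed target. Each is 30 bases of the GENCODE transcript (GRCm38), 5′ to 3′, with the first repeat units in capitals, and the tract goes on beyond the window.
Mapkap1, chromosome 2, 3′-UTR, 25 CTG units: tggagccagacgCTGCTGCTGCTGCTGCTG
Pacsin2, chromosome 15, 3′-UTR, 21 CTG units: ccggtgaacggaCTGCTGCTGCTGCTGCTG
Kmt2d, chromosome 15, coding sequence, 16 CAG units: gtgctgcctgccCAGCAGCAGCAGCAGCAG

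No gene with such a tract passed limma, and most had a slightly higher mean with CWG-cPIP. Mapkap1, a subunit of the mTORC2 kinase complex with the longest tract, had 9.55, 9.53 and 9.49 with vehicle and 9.46, 9.48 and 9.52 with CWG-cPIP (difference −0.04, SE 0.08). Pacsin2, a membrane-bending protein of endocytosis, had 9.63, 9.76 and 9.82 against 9.57, 9.69 and 9.85 (difference −0.03, SE 0.10). Kmt2d, a histone methyltransferase, differed by 0.17. In all 3 genes the treated and the vehicle-treated mice overlapped. They did not overlap for Capn6, which has 22 CAG units in its 5′-UTR and low values in all mice. Capn6 had 3.87, 3.68 and 3.77 with vehicle and 3.51, 3.61 and 3.49 with CWG-cPIP (difference −0.24, SE 0.14). Of the 53 genes 38 had a higher and 15 a lower mean, with a median of 0.125, beside −0.0027 over the 14301 genes compared that have an annotated transcript. At an unadjusted p under 0.05, 6 were higher and 2 lower, and 4 and 3 did not overlap in these directions. Over those 14301 genes, 742 were higher and 513 lower at that p, and 709 and 500 did not overlap.

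**Figure D5:**
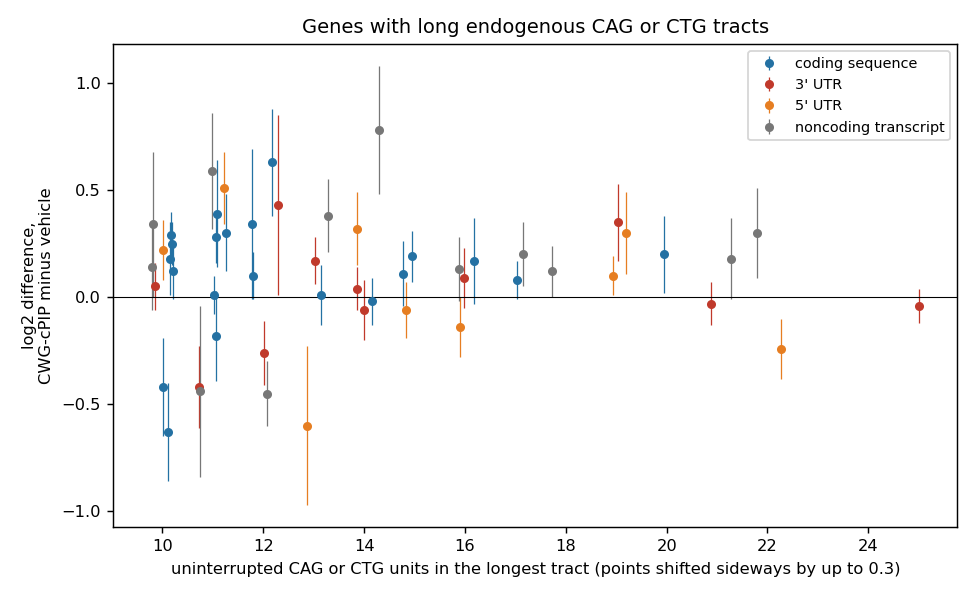
Log2 difference between CUG300 mice given CWG-cPIP and those given vehicle (vertical axis, bars are the limma standard error) for the 53 genes with a tract of at least 10 CAG or CTG units, against the number of units (horizontal axis), coloured by the place of the tract. Differences reach from −0.63 to 0.78, and the genes with 20 or more units lie between −0.24 and 0.30.

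The lowest of these differences was that of Bmp6, a growth factor with 10 CAG units in its coding sequence, with 7.04, 7.02 and 7.49 with vehicle and 6.43, 7.01 and 6.23 with CWG-cPIP. The highest was that of Bcan, the proteoglycan brevican of the perineuronal matrix, with 10.83, 10.96 and 10.01 against 11.52, 11.88 and 10.75, whose tract of 14 units lies in a noncoding transcript. Genes with 5 to 9 units had a median of 0.103, with 289 higher and 134 lower, a median close to that of the longer tracts. Bmp6, Bcan, Capn6, Pacsin2 and Kmt2d were chosen after their values were seen. Tracts outside annotated transcripts, where a DNA ligand may also bind, were not analysed here.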

How the data were processed

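Total RNA of the hippocampus of 9 mice was sequenced with a directional library kit, as the labels and the study's methods state. Per the study's methods and the submitters' notes, the authors used Trim Galore 0.6.6 for trimming, STAR 2.7.9a for alignment to GRCm38/mm10 and RSEM 1.3.3 for gene quantification. The deposited values are regularized logarithms (rlog) from DESeq2 1.36.0, made by the authors on the log2 scale, 1 value per gene and mouse. Gene annotation, use of strand and the options of rlog are not given in the sources used here. The values hold no counts, so the depth per mouse is unknown, no count model was run, and the number of mice limits the precision. The shrinkage in rlog understates differences of genes with low counts.

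Of 24411 genes, 5175 stood at one value in all mice, and 14867 with a mean of at least log2(10) were compared, 23 of them with symbols turned into dates, which are not named. Group means were fitted with limma 3.58.1 (R 4.3.3, trend in the variance, 3.03 prior degrees of freedom) on all 9 mice, which share 1 variance per gene, and the Benjamini-Hochberg adjustment ran over all 14867 genes. Mice were separate animals by the submitters' design text. The procedure was tested on simulated data. Alternatives were other scaling, filters and variance models, a looser threshold of 0.1, only the CUG300 groups, the replicate number as a block, leaving out each mouse, and the choroid plexus mean as a covariate; 2 more were added after seeing the data (this mean together with that of the thalamus list, and markers of 4 tissues left out of the counts).

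Named genes were the 12 largest differences in each direction among genes without overlap and with an unadjusted p under 0.05, the 10 smallest p, the first 2 written and the largest difference of each of 40 lists, Mbnl1, Mbnl2, Celf1, Dmpk, Htt, Grin1, Mapt and App, and genes called under an alternative where these were 5 or fewer; predicted and clone names were left out of the first 2 parts, and some genes of the rule are not reported here. Other list members named in the text were chosen after their values were seen. The lists, written from textbook knowledge, and the comparison were chosen with earlier results of these data known, and lists are therefore described by counts and medians without a test. Coordinates are from GENCODE on GRCm38, joined by symbol for 14276 genes, promoters from RefSeq on GRCm38.p6, and repeat tracts from GENCODE transcripts.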

Additional observations from a re-analysis of the deposited data

How the results depend on the processing

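At an adjusted p below 0.05, 0 genes were called under other scaling, filters, variance models or the replicate block, nor at an adjusted p under 0.1. Fitting only the 2 CUG300 groups called 3 (F5, Gm7334 and Slc4a5), and leaving out single mice called 0 to 3: 1 without CUG10 replicate 3 (Gm7334) and 3 without treated replicate 3 (Ccl8, Foxb1 and Mab21l2). Where a group is left with fewer mice, its spread is assumed to be that of the others. Genes at an unadjusted p under 0.05 ranged from 203 to 2228 higher and from 170 to 1998 lower when single mice were left out. They were 335 higher and 295 lower from only the CUG300 groups, 79 and 100 with the choroid plexus mean as covariate, and 53 and 53 with the choroid plexus and thalamus means. Both list means separated the treated from the vehicle-treated CUG300 mice, so these covariates are confounded with the compound. Without a filter, 846 were lower at an unadjusted p under 0.05 and 1175 were lower without overlap, and with a mean of at least log2(100) these were 231 and 239. The causes of these shifts were not tested, beyond the change in the number of genes and mice. Whether the replicate numbers pair the mice could not be settled from these values. Deviations of same-numbered mice correlated at −0.179, 0.405 and 0.413, and those of differently numbered mice at −0.524 to 0.434. The fit with the replicate block called 0 genes, and 926 genes higher and 695 lower had an unadjusted p below 0.05.

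Of 143 named genes, 127 kept their direction in every alternative run. With the choroid plexus mean as covariate the log2 difference turned for Dmpk (0.06173), Gapdh (−0.204), Hba-a1 (−0.5239), Hbb-bs (−0.5792), P2ry12 (−0.2434) and Rorb (−0.01248), and with quantile scaling for Pdgfrb (0.004184). Over leave-one-out fits these differences ranged from −0.1198 to 0.2003 for Abcc1, −0.07819 to 0.1848 for Aqp4, −0.09513 to 0.1317 for Camk4, −0.9989 to 0.026 for Ddx58, −0.2278 to 0.1188 for Dmpk, −1.189 to 0.01101 for Fosb, −0.5685 to 2.307 for Hba-a1, −0.06903 to 0.01924 for Mbnl1, −0.2701 to 0.328 for Mbp, −0.05336 to 0.3923 for P2ry12, −0.2023 to 0.1329 for Pdgfrb, −0.3047 to 0.09429 for Pecam1 and −0.1759 to 0.06629 for Supt5. Of the list medians under alternatives, 701 moved by less than 1 SD between mice and 18 by more. That SD averages the spread of vehicle-treated and of treated mice, 0.19 and 1.25 for the interferon-stimulated genes. The shift of their median from −0.894 to −0.2483 without treated replicate 2 therefore counted as less than 1 SD.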

Other observations

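Further genes without overlap between treated and vehicle-treated CUG300 mice lay outside the lists. Itih3, which encodes a chain of the inter-alpha-trypsin inhibitor that binds hyaluronan, had 7.73, 7.90 and 7.31 with vehicle, 8.31, 8.55 and 8.26 with CWG-cPIP and 7.78, 7.68 and 7.65 in CUG10 mice. Cbln2, a synaptic organizer of the cerebellin family, had 6.51, 7.29 and 6.81 with vehicle and 7.89, 8.31 and 7.33 with CWG-cPIP, and its CUG10 mice, at 7.85, 7.29 and 7.06, spanned part of both. Gpr101, an orphan receptor known from the hypothalamus, had 4.86, 5.04 and 4.73 against 5.83, 6.56 and 5.31. Sema3b, a secreted semaphorin, had 7.55, 6.85 and 7.47 against 6.25, 6.23 and 6.01, with CUG10 mice at 6.32, 6.46 and 7.22. For Itih3 the treated mice stood above all others, and for Sema3b they stood below all others.

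Globin genes did not move together. Hba-a1 had 3.71, 8.28 and 3.67 with vehicle, 8.69, 5.67 and 3.63 with CWG-cPIP and 3.62, 3.63 and 3.64 in CUG10 mice, whereas Hbb-bt, of the same red cells, had 8.17, 7.60 and 7.65 against 7.37, 7.70 and 7.63. Globin genes have near-identical copies between which reads can be split, and the part of this in the jumps of Hba-a1 was not tested.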
